A study of Camponotus fellah with 299 samples.

Results

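The foragers of 3 colonies of the carpenter ant Camponotus fellah were divided by how often they exchanged food on the foraging side, and their brains were compared. An ant was taken as a forager where its deposited nurse-forage ratio was 0.25 or more, which 60 of the 289 ants with behaviour labels met. A forager with a forage-side trophallaxis tally of 3 or more was called sharing (24 ants), and one with a tally of 0 or 1 non-sharing (26 ants). These 50 ants, 16.7% of all that were sequenced, were compared, and the 10 foragers with a tally of 2 were kept apart. The rule used the labels of the ants and no expression value. The tallies do not say whether an ant gave or received food.

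Trophallaxis is the passing of liquid food from the crop of one ant to the mouth of another. In many ants a returning forager unloads its crop to nestmates, which pass the food on, so that an ant that does not forage can feed from what foragers bring. The exchanged fluid is also known to carry proteins and other molecules of the giver.

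Brains were sequenced one by one after the colonies, numbered 2, 3 and 4, had been followed for a week, and the labels give no treatment or genotype. The sharing foragers were 4 to 45 months old (median 24) and the non-sharing foragers 4 to 46 months (median 28). Colony 2 gave 8 sharing and 6 non-sharing foragers, colony 3 gave 14 and 3, and colony 4 gave 2 and 17. Libraries held 22.4 to 57.5 M counted reads (M, 1e+06 reads) in sharing foragers (median 37.1) and 23.4 to 71.9 M in non-sharing foragers (median 37.4). In the deposited counts 80.7% of the values from 1 to 9 were even, and it is not given in the sources used here whether both mates of a read pair were counted; if they were, these totals count each fragment more than once. The identifiers carry no gene names, so neither roles of genes nor markers of brain cells could be read, and each gene model is given by its identifier. Ants are the replicates in every p-value, all from 3 colonies, and no sequencing batch is named in the labels.

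Food exchange on the foraging side differed between colonies. In colony 3, 14 of 19 foragers had a tally of 3 or more (73.7%, Clopper-Pearson 95% interval 48.8 to 90.9%). In colony 2 it was 8 of 17 foragers (47.1%, 23.0 to 72.2%), and in colony 4 it was 2 of 24 (8.33%, 1.03 to 27.0%). The intervals of colonies 3 and 4 did not overlap, and the shares differed over the 3 colonies by a two-sided exact Freeman-Halton test (p = 2.91e-05). Of the 3 pairs of colonies, 3 and 4 differed (Fisher's exact test, adjusted p = 4.57e-05) and so did 2 and 4 (adjusted p = 0.0124), whereas the test did not separate 2 and 3 (adjusted p = 0.171). These tests treat ants as independent, although ants of a colony share their nest and food, and each colony was tracked once. The tests cannot tell whether the shares would differ again if the same colonies were tracked anew.

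The single tallies showed the same order. The median forage-side tally of a forager was 4 events in colony 3, 2 events in colony 2 and 0.5 events in colony 4. A tally of 0 was recorded in 1 of 19 foragers in colony 3, in 4 of 17 in colony 2 and in 12 of 24 in colony 4, and the highest tallies were 14, 9 and 4 events. Foragers of colony 4 also had the lowest mean tallies of cleaning on the foraging side, 0.417 ± 0.584 events (SD, n = 24) against 2.29 ± 2.66 (n = 17) in colony 2 and 1.37 ± 1.95 (n = 19) in colony 3. Whether colony 4 was observed for as long on that side is not given in the sources used here.

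**Figure D1:**
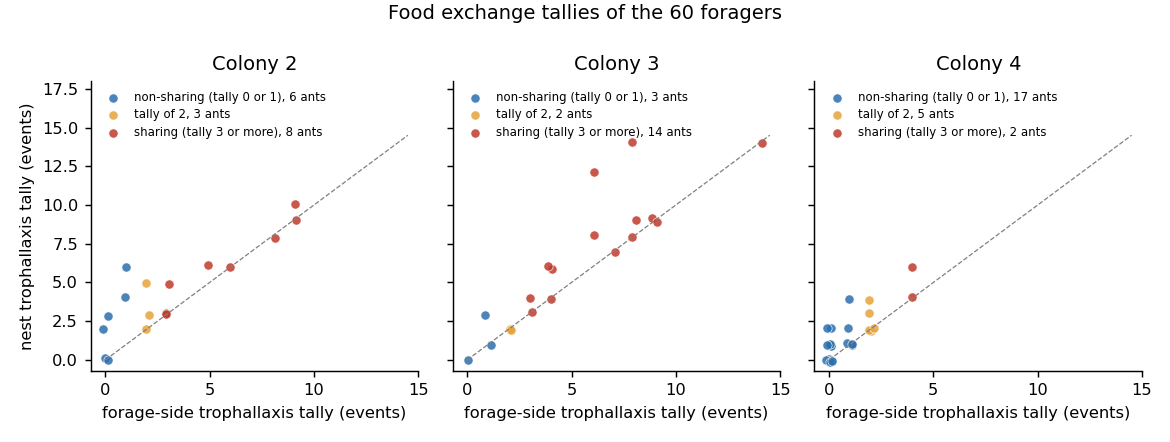
Forage-side trophallaxis tally (events, horizontal) against nest trophallaxis tally (events, vertical) of each of the 60 foragers, by colony, with small sideways shifts so that equal points can be seen and a dashed line where the tallies are equal. Of the sharing foragers 14 are in colony 3 and 2 in colony 4, and no ant lies below the line apart from those shifts.

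The nest tally followed the forage-side tally closely. In none of the 289 ants was the nest trophallaxis tally below the forage-side tally, and the labels do not say whether the nest tally counts the forage-side events again. Sharing foragers had a nest tally of 7.21 ± 3.19 events (SD, n = 24) and non-sharing foragers 1.38 ± 1.55 (SD, n = 26), a difference that the rule would fix if the events were counted in both. With the forage-side tally subtracted, 1.08 ± 1.72 events were left in sharing foragers and 1.04 ± 1.34 in non-sharing foragers, as a description, since the subtracted tally chose the groups.

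Non-sharing foragers also had lower nest tallies than the labelled ants below the ratio of 0.25. These other ants (70, 79 and 80 of colonies 2, 3 and 4) mostly had a ratio of 0, but some had one above 0, up to 0.240. They had a nest tally of 3.96 ± 2.66 events (SD), and non-sharing foragers stood 2.30 events lower within colonies. This is a description too, since the rule took non-sharing foragers for a low forage-side tally, which the nest tally may count again. The nest tally of sharing foragers, given above, was higher than that of the other ants, whereas after subtraction of the forage-side tally the other ants kept 3.94 ± 2.65 events (SD), more than either group of foragers. The rule used the subtracted tally, so these values are a description with no test. Only 4 of these other ants had any forage-side event, with a tally of 1 each.

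No other label separated sharing from non-sharing foragers past the threshold. Of 13 measures compared by permuting the groups within colonies, none had an adjusted p below 0.05. One of them was the log2 library size, which comes from the counts and not from the labels (permutation p = 0.52, adjusted p = 0.68). The 13 included the nest tally less the forage-side tally. Its test decides nothing, since the forage-side tally chose the groups, but it was counted in the adjustment. The rule also used the nurse-forage ratio, with the same lower bound for both groups, so only differences above that bound were compared. The lowest p was that of body length (unit not given), which was 0.62 higher in sharing foragers within colonies (permutation p = 0.016, adjusted p = 0.21). The nurse-forage ratio was 0.790 ± 0.152 in sharing and 0.676 ± 0.260 in non-sharing foragers (SD; difference within colonies 0.16, permutation p = 0.044, adjusted p = 0.26). No sharing forager had a ratio below 0.502, whereas the non-sharing foragers began at 0.263. Age differed by -3.45 months (permutation p = 0.28, adjusted p = 0.54). The tally of guarding, which is standing watch at the nest, was 0.958 ± 1.27 in sharing and 2.12 ± 2.72 in non-sharing foragers (SD; permutation p = 0.081, adjusted p = 0.26). Brood care was near 0 in both groups, with a tally of 0 in 19 of 24 sharing and 24 of 26 non-sharing foragers.

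The brains of sharing and non-sharing foragers did not differ in any gene model past the threshold. With colony, age and ratio in the model, edgeR's quasi-likelihood test called 0 of 10457 gene models (0%) at an adjusted p below 0.05. At an unadjusted p below 0.05 there were 2.08% of the gene models, where 5% would be 522.85 of them, and 69.7% of these were higher in sharing foragers. DESeq2 called 0 (2.71% at an unadjusted p below 0.05) and limma-voom called 0 (1.999%). The lowest unadjusted p was 0.000452, and over all gene models 5213 had a higher and 5244 a lower fitted value in sharing foragers. Each of the 50 fits that left out 1 ant also called 0 gene models with edgeR, with 1.49 to 2.83% at an unadjusted p below 0.05.

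How large a difference could have been missed was read from the 95% intervals of limma-voom. The median half-width was 0.181 log2 over the 10457 gene models, against a median absolute difference of 0.0448 log2. The interval lay within 0.5 log2 of no difference in 8338 gene models (79.7%) and within 0.25 log2 in 5795 (55.4%). Of the 8371 gene models with a median of at least 4 counts per 1e+06 counted reads (CPM), 94.6% had an interval within 0.5 log2. Of the 2086 below that level 20.2% did, so for most of these the interval reached past 0.5 log2 in at least 1 direction.

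**Figure D2:**
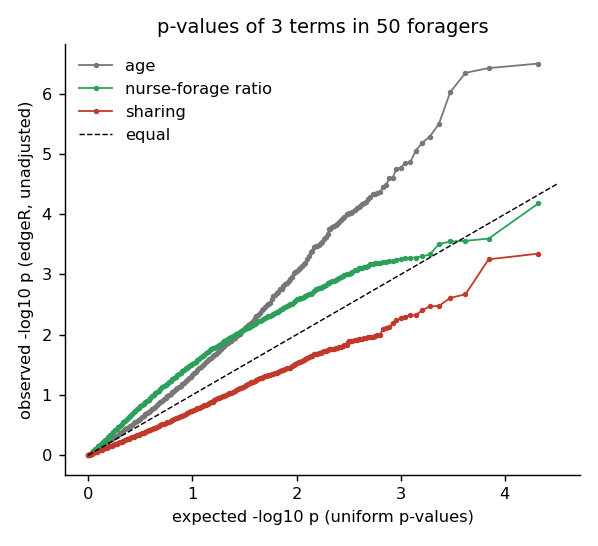
Observed against expected unadjusted p-values of edgeR (both as −log10) for sharing, age and nurse-forage ratio in one model of the 50 foragers, with a dashed line where they are equal. The sharing points lie below the line over the range drawn, the lowest p being 0.000452, and the age points rise above it.

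Once colony was in the model, little of the variance of expression in these brains lay with sharing. Colony alone took 21.0% of the variance of log2 CPM over the 50 foragers, what it shares with sharing included. The shares within colonies were each taken with the other terms in the model, so they are not directly comparable with that of colony. Within colonies sharing took 1.97%, less than the 2.13% that a term unrelated to expression would take, while age took 2.74% and the ratio 2.41%. When colony was left out of the model, a setting chosen after seeing the data, edgeR called 891 gene models, 644 higher and 247 lower in sharing foragers, against 0 with colony in the model. Colony and sharing overlap in these ants, since 17 of the 26 non-sharing but only 2 of the 24 sharing foragers came from colony 4.

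With the pairs of the 3 colonies pooled, whole-brain profiles of ants of one colony had about the same likeness between the groups as within them. The median correlation of log2 CPM between pairs of ants of the same colony was 0.973 for pairs of sharing foragers, 0.972 for pairs of non-sharing foragers and 0.973 for mixed pairs. In the same order the medians were 0.970, 0.979 and 0.973 in colony 2 and 0.974, 0.952 and 0.968 in colony 3. In colony 4 they were 0.982, 0.972 and 0.977. Colony 3 had only 3 non-sharing pairs and colony 4 only 1 sharing pair. Mixed pairs lay between the other kinds in each colony. On the first principal component of the profiles centred on colony (15.3% of the variance) the means were -0.67 ± 19.7 in sharing and 0.62 ± 21.6 in non-sharing foragers (SD). On the second (9.95%) they were 2.95 ± 18.3 and -2.72 ± 14.6, and the groups overlapped on both.

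**Figure D3:**
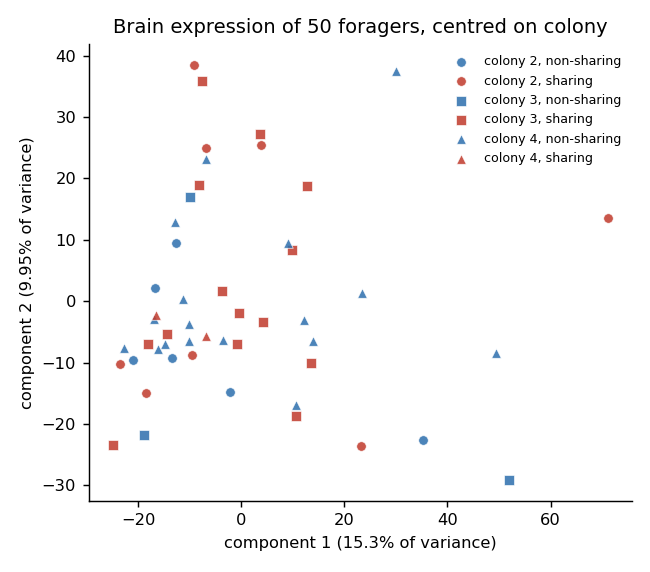
First and second principal component of log2 CPM centred on colony in the 50 foragers, coloured by sharing and shaped by colony. Sharing and non-sharing foragers are mixed over both axes, which hold 15.3% and 9.95% of the variance.

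With none called, 4 gene models are described by their values in single ants. They have the 2 lowest p among higher and the 2 lowest among lower values in sharing foragers. Each had a median above 4 CPM. Each also had the same sign in each colony fitted alone, but these are the ants that chose the gene models. The difference was smaller than its SE for evm.model.ctg151.21 in colony 4 (-0.05 ± 0.10 log2) and evm.model.ctg3.32 in colony 2 (-0.10 ± 0.23 log2), and larger in the other colony fits. No names are paired with the identifiers of the 4 gene models, so their roles are not known here.

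The level of evm.model.ctg74.93 differed more between colonies than with sharing. Its level in sharing foragers was 17.5 CPM in the lowest, 35.5 in the median and 41.6 in the highest ant, and in non-sharing foragers 13.6, 18.2 and 41.3 CPM. The medians were 38.1 against 32.7 CPM in colony 2, 35.1 against 29.0 in colony 3 and 18.5 against 16.3 in colony 4. Colony 4 stood far below the other colonies in both groups, and within each colony the groups overlapped. The difference was 0.23 ± 0.06 log2 (SE; edgeR unadjusted p = 0.000452, adjusted p = 1) with colony in the model and 0.77 ± 0.12 log2 (edgeR adjusted p = 0.000242) without it. With sharing in the model its slope on the ratio was -0.49 ± 0.11 log2 (edgeR adjusted p = 0.255).

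In evm.model.ctg11.17 the fitted difference was largest in colony 2. Its level in sharing foragers was 5.56, 7.68 and 13.6 CPM in the lowest, median and highest ant, and in non-sharing foragers 2.91, 6.67 and 8.36 CPM. In colony 2 sharing foragers lay between 8.03 and 13.6 CPM and non-sharing foragers between 5.98 and 8.21 CPM, so that the groups overlapped only at the edge. The difference was 0.43 ± 0.12 log2 over all colonies (SE; edgeR adjusted p = 1), and 0.66 ± 0.24, 0.31 ± 0.24 and 0.26 ± 0.21 in colonies 2, 3 and 4 alone. The interaction with colony was not called (edgeR adjusted p = 0.751).

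For evm.model.ctg3.32 the groups were apart in colony 3. Its level was 4.59, 6.08 and 7.48 CPM in the lowest, median and highest sharing forager, and 4.16, 6.64 and 10.3 CPM in the non-sharing foragers. In colony 3 the 3 non-sharing foragers, at 8.16, 8.20 and 10.3 CPM, lay above all 14 sharing foragers, which reached 7.48 CPM. In colony 2 the non-sharing foragers spread on both sides of the sharing ones, from 4.16 to 8.00 CPM. The difference was -0.24 ± 0.08 log2 (SE; edgeR adjusted p = 1), and -0.44 ± 0.14 in colony 3 alone (edgeR adjusted p = 0.964).

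The difference of evm.model.ctg151.21 was the smallest of the 4. Its level was 51.4, 66.3 and 74.3 CPM in the lowest, median and highest sharing forager, and 58.6, 70.1 and 83.99 CPM in the non-sharing foragers, with most ants of both groups in the shared range. The difference was -0.12 ± 0.04 log2 (SE; edgeR adjusted p = 1).

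**Figure D4:**
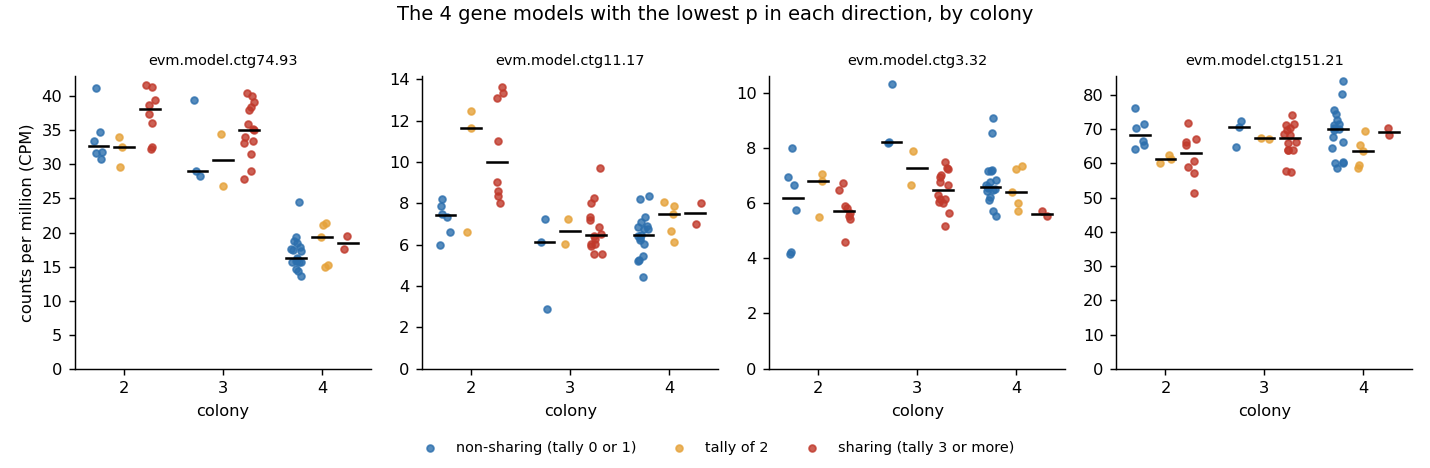
Level (CPM, vertical, from 0) of 4 gene models in each of the 60 foragers by colony, with a black bar at the median of each group of a colony. For evm.model.ctg74.93 the colony 4 medians of 16.3 and 18.5 CPM lie below those of the other colonies, and for evm.model.ctg3.32 the 3 non-sharing foragers of colony 3 lie above the sharing ones.

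Within single colonies no gene model was called with edgeR either. Colony 2 gave 0 of 10457 (0%; 274, or 2.62%, at an unadjusted p below 0.05), colony 3 gave 0 of 10454 (0%; 409, or 3.91%) and colony 4 gave 0 of 10456 (0%; 2.08%). DESeq2 called 1 gene model in colony 2 and 12 in colony 3, all 12 higher in sharing foragers, against 3 non-sharing foragers there. A difference that varied between colonies was also not called (0 of 10457, 0%, with edgeR; 767, or 7.33%, at an unadjusted p below 0.05; limma-voom called 1).

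The number of food exchanges added nothing past the threshold. Along the log2 of the tally plus 1 in all 60 foragers, edgeR called 0 gene models (0%; 4.46% at an unadjusted p below 0.05; DESeq2 0), and 19 when no filter on low counts was used. Inside the 24 sharing foragers, whose tallies ran from 3 to 14 events, it called 0 (0%; 1.79% at an unadjusted p below 0.05). Of the named gene models, evm.model.ctg11.17 had a slope of 0.18 ± 0.04 log2 per doubling of the tally plus 1 over the 60 foragers (SE; edgeR unadjusted p = 0.000164, adjusted p = 0.858), and 0.00 ± 0.13 inside the sharing foragers (SE; edgeR unadjusted p = 0.975). The slope of evm.model.ctg3.32 was -0.11 ± 0.03 over the 60 foragers (SE; edgeR adjusted p = 0.918). Both gene models were chosen for a low p in 50 of these 60 ants, so their slopes over the 60 are no further support.

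The 10 foragers with a tally of 2 differed from non-sharing foragers in a few gene models past the threshold. Against non-sharing foragers 1424 gene models (13.6%) had an unadjusted p below 0.05 with edgeR, beside 2.08% for sharing against non-sharing foragers. After adjustment edgeR called 8 gene models (0.0765%), 1 higher and 7 lower in the ants with a tally of 2, each at an adjusted p of 0.0486. In the gene model that was higher, the median was 18.3 CPM in these ants, 14.0 in non-sharing and 14.3 in sharing foragers. In the 7 that were lower, sharing foragers had medians between those of the other groups, and between sharing and non-sharing foragers the lowest unadjusted p of the 8 was 0.171 with edgeR. The 8 calls were lost with log2 library size or body length added to the model, each of which gave 0. Of the other tools, DESeq2 called 1.26% of the gene models, limma-voom 0, and leaving out 1 ant with a tally of 2 gave 0 to 15, while leaving out any colony gave 0. Between sharing foragers and those with a tally of 2, edgeR called 0 gene models (0%; 1093, or 10.5%, at an unadjusted p below 0.05) and DESeq2 18.

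Age and the ratio were tested in the same model as sharing. In the same 50 foragers edgeR called 59 gene models with age (0.564%), 40 rising and 19 falling, and 1076 (10.3%) had an unadjusted p below 0.05. Without colonies 2, 3 and 4 in turn, with fewer ants in the fit, the calls with age were 14, 9 and 13. For the ratio edgeR called 0 (0%), with 1521 gene models (14.5%) at an unadjusted p below 0.05, DESeq2 called 20, and edgeR 19 without the filter on low counts. Calls for the colony term were not counted.

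Over all 289 labelled ants, with colony, age and ratio in the model, the forage-side tally called 47 gene models with edgeR (0.449%), 41 rising and 6 falling. Here ants outside the foragers enter nearly all with a tally of 0. In 32 of the 47 the highest level was that of a single sharing forager of colony 3 with a tally of 9, and without it 3 were called, all rising. DESeq2 called 46 and limma-voom 0, with 425 at an unadjusted p below 0.05, against 532 (5.09%) with edgeR. Of the named gene models evm.model.ctg3.32, chosen for its p in 50 of these ants, fell in this fit. It fell by 0.10 log2 for each doubling of the tally plus 1 (edgeR adjusted p = 0.0473), a call that was lost without that ant.

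Food exchange in the ants below the ratio of 0.25 gave a comparison with no ant in common. In the other ants, with colony, age and oriented maturity in the model, edgeR called 36 gene models along the nest trophallaxis tally (0.344%), 17 rising and 19 falling, and 8.68% had an unadjusted p below 0.05. Maturity is a label from 0 to 1 that rises with age in colonies 2 and 3, and was turned round in colony 4. Leaving out colonies 2, 3 and 4 in turn left 5, 11 and 22 calls. The 17 rising gene models lie on 13 contigs, with 1 pair next to each other, and their levels moved together, with a median correlation between pairs of 0.399 across the other ants.

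Of these 17 gene models, 16 had a higher fitted value in sharing than in non-sharing foragers, with a median difference of 0.23 log2. Over all gene models 49.9% did, with a median of -0.00020 log2. None of the 17 was called in foragers, and 3 had an unadjusted p below 0.05 with edgeR, beside 2.08% of all gene models. With body length added to the model, 14 of 17 were higher (49.7% of all gene models), and 1 had an unadjusted p below 0.05. In the gene model of the 17 with the lowest p, the lowest, median and highest sharing forager had 54.2, 96.1 and 236.8 CPM and the non-sharing foragers 30.0, 78.9 and 142.7 CPM. That is 0.65 ± 0.20 log2 (SE; edgeR unadjusted p = 0.00214, adjusted p = 1), with groups that overlapped.

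The median over the 17 was highest in colony 3. There 16 of 17 were higher, with a median of 0.72 log2 (48.3% of all gene models higher), against 3 non-sharing foragers. In colony 2 alone 12 of 17 were higher, with a median of 0.07 log2 (50.95% of all), and in colony 4 alone 14 of 17, with a median of 0.21 log2 (48.5% of all). Without colony 3 the fit gave 12 of 17 and a median of 0.06 log2. Leaving out 1 ant at a time gave 14 to 17 of 17 and medians of 0.14 to 0.33 log2. The lowest, 14 of 17 and 0.14 log2, came without the colony 3 non-sharing forager that had the lowest mean level of the 17. In colony 3 the mean log2 CPM of the 17 was 3.06, 3.78 and 3.90 in the non-sharing foragers. In the sharing foragers of that colony it was 3.53 to 4.71. Over all colonies the medians were 4.27 in non-sharing and 4.21 in sharing foragers, groups that hold the colonies in different shares. Centred on the mean of each colony's foragers, the medians were -0.0097 in non-sharing and 0.079 in sharing foragers. Inside the 24 sharing foragers only 4 of the 17 slopes on the forage-side tally were above 0, with a median of -0.22 log2. Of the 19 gene models that fell along the nest tally, 2 had a slope above 0 there, with a median of -0.20 log2. Over all gene models 51.5% of these slopes were above 0, with a median of 0.0028 log2. In the comparison of sharing with non-sharing foragers, the 19 falling gene models gave 7 higher values in sharing foragers and a median of -0.05 log2.

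**Figure D5:**
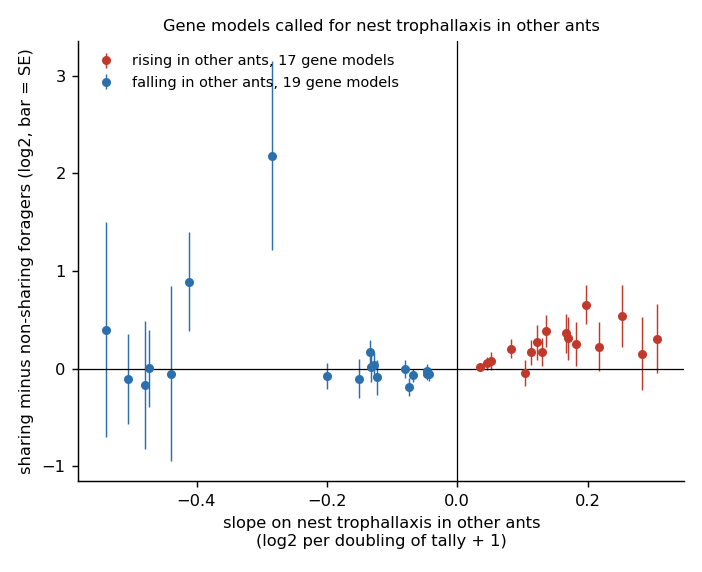
Slope on the nest trophallaxis tally in the ants below the ratio of 0.25 (log2 per doubling of the tally plus 1, horizontal) against the difference between sharing and non-sharing foragers (log2, vertical, bars give the SE) for the 36 gene models called in the other ants. Of the 17 rising gene models 16 lie above 0, most with bars that reach near it, and the 19 falling ones lie on both sides.

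Gene models that change with maturity in the ants below the ratio of 0.25 were read in the foragers in the same way. In these other ants edgeR called 554 gene models along oriented maturity (5.30%), 277 rising and 277 falling, and 17.3% had an unadjusted p below 0.05. Of the rising gene models 72.9% had a higher fitted value in sharing than in non-sharing foragers, against 49.9% of all gene models, with a median of 0.05 log2. Of the falling ones 43.0% were higher, with a median of -0.02 log2. In colonies 2, 3 and 4 alone 56.3, 57.4 and 67.5% of the rising gene models were higher, beside 55.96, 53.4 and 36.1% of the falling ones and 50.95, 48.3 and 48.5% of all gene models. The rising and falling lists thus went opposite ways in colony 4, which has 2 sharing foragers, and both stood above the share of all gene models in colonies 2 and 3. Without colony 4 the shares were 58.8% of the rising and 53.1% of the falling gene models. Oriented maturity itself was 0.977 ± 0.0346 in sharing and 0.932 ± 0.0767 in non-sharing foragers (SD; permutation p = 0.076, adjusted p = 0.26). With oriented maturity added to the model, 74.01% of the rising and 43.0% of the falling gene models were higher. Genes move together, so these shares are a description with no test.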

How the data were processed

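Single brains of 299 ants were sequenced from stranded mRNA libraries made with a KAPA kit after Tri reagent extraction, per the labels' protocols. Each deposited value is the raw count of reads in a gene model; STAR and featureCounts were used, per the submitters' processing notes. Versions, genome build, annotation and strand setting are not given in the sources used here, so overlapping or near-identical gene models are uncertain. In the deposited counts, 80.7% of values from 1 to 9 were even. Of 14664 gene models, 10457 passed edgeR's filterByExpr on colony over all ants (minimum count 10) and held 99.99% of counts. No pair of the 50 foragers correlated above 0.987.

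Each fit was edgeR (4.0.16, R 4.3.3) with robust quasi-likelihood F-tests, TMM normalization over the ants entered and adjustment by Benjamini and Hochberg over every gene in the fit; an adjusted p below 0.05 is called. DESeq2 (1.42.0) and limma-voom (limma 3.58.1) were alternatives. The main model held sharing, colony, age and the nurse-forage ratio. Tallies were entered as log2(tally + 1). Standard errors came from the difference and its F statistic. Label differences were weighted over colonies and tested two-sided with 100000 permutations within colonies. Scripts were tested on simulated data. Log2 CPM used a prior count of 1. Oriented maturity is 1 minus the deposited value in colony 4, where the deposited value falls with age. The named genes were to be those called with the largest changes; with none called, the rule took the 2 lowest p in each direction. The groups, rule and tests were chosen with earlier results of these data known. The 10 ants without labels were left out. Ratios nearest the bound of 0.25 were 0.240 below it and 0.263 above it. Intervals of shares cover counting error only. Gene and marker lists could not be matched to the identifiers.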

Additional observations from a re-analysis of the deposited data

Results flagged for a closer look

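One value stood apart among 19 groups of 4 to 10 foragers that were looked at, about as many as chance gives, since it marks about 1 in 20 groups. In the 8 sharing foragers of colony 2, the mean log2 CPM of the 17 gene models that rose with nest trophallaxis in the other ants was 3.78 in the lowest ant, and 4.15 in the next. The group's median was 4.28.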

How the results depend on the processing

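Sharing against non-sharing foragers gave 0 calls under 23 other settings (1.80 to 6.65% of gene models at an unadjusted p below 0.05): other normalizations, tests, filters, covariates, tally and ratio bounds, each colony left out, and blocks of ant numbers. Leaving out colony, added after seeing the data, gave 891 calls (8.52%). No paired analysis was possible because numbers of ants are only names and pair no ant of one group with one of another.

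Other counts of calls moved as follows, as percent of the gene models tested. Without the filter on low counts, 0.00786% were called in colony 4, 0.142% for the tally slope in 60 foragers, 0.112% for sharing against a tally of 2, 0.143% for the ratio, 0.872% for age, 1.30% for nest trophallaxis in other ants and 1.19% for the tally in all labelled ants. DESeq2 called 0.00956% in colony 2, 0.115% in colony 3, 1.26% for a tally of 2 against non-sharing, 0.172% for sharing against a tally of 2, 0.191% for the ratio, 0.966% for age and 0.593% for nest trophallaxis. With limma-voom it was 0.00956% for the interaction, 0% for a tally of 2 against non-sharing and 0% for the tally in all labelled ants, which fell to 0.0287% with edgeR without its top ant. A tally of 2 against non-sharing gave 0% with library size or body length added or without any 1 colony, and 0 to 0.143% with an ant left out. Without colonies 2, 3 and 4, age gave 0.134, 0.0861 and 0.124%, and nest trophallaxis 0.0478, 0.105 and 0.210%. The cause was not tested.

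The 4 named gene models kept their direction in 16 alternatives, and none was called. They were chosen by p in the main fit and the alternatives share most of its ants, so the direction was largely set by that choice. Differences were 0.13 to 0.28 log2 for evm.model.ctg74.93 and 0.29 to 0.62 for evm.model.ctg11.17. They were -0.35 to -0.12 for evm.model.ctg3.32 and -0.15 to -0.07 for evm.model.ctg151.21. Forage-side grooming differed by 0.09 events in means and by -0.11 in medians. The share of sharing foragers differed between colonies under each other bound tried, with ants taken as independent and each colony tracked once (highest Freeman-Halton p = 0.00403). Intervals were wider for gene models below 4 CPM (median half-width 0.598 against 0.153 log2), and few ants limit colony 3 (3 non-sharing) and colony 4 (2 sharing).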

Other observations

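Expression varied a little less between sharing than between non-sharing foragers. The median standard deviation of log2 CPM within a group was 0.231 in sharing and 0.249 in non-sharing foragers, and it was higher in sharing foragers for 3910 gene models (37.4%). The colonies make up the groups in different shares, which cannot be told apart from this.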
